A study of Mus musculus with 6 samples.

Results

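The genes described here are 10 genes of DNA methylation and of CpG-binding CXXC-domain proteins, measured in hearts that lack Cfp1 in cardiomyocytes and in wild-type hearts. They are the maintenance methyltransferase gene Dnmt1 and its partner Uhrf1, the de novo methyltransferase genes Dnmt3a and Dnmt3b, the dioxygenase genes Tet1, Tet2 and Tet3, and the CXXC-domain genes Kdm2a, Kdm2b and Cxxc5. They were chosen by name from the 26881 genes of the deposited table, and all 10 were found there. Cfp1, encoded by Cxxc1, is itself a CXXC-domain protein and is not among them. RNA-seq was done on 3 Cfp1-cKO and 3 WT heart samples from mice aged 2 weeks. Cfp1-cKO mice carry Myh6-Cre and floxed alleles of Cfp1 on a C57BL/6 background, and the labels give their genotype as CXXC1 null. The Myh6 promoter drives Cre in cardiomyocytes, so that the other cells of the heart keep the gene. The controls are labelled wild type. The study names littermates as controls where it reports growth, and does not say if the RNA-seq controls were littermates or carried floxed alleles. Nothing in the sources says if each sample held a single heart or a pool. The p-values therefore reflect the spread among these 6 samples, some of which may be technical.

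DNA methylation in mammals lies mostly on the cytosine of CpG dinucleotides. DNMT3A and DNMT3B place the mark on unmethylated DNA, whereas DNMT1 copies it onto the new strand after replication, guided by UHRF1, which binds hemimethylated CpG. TET enzymes oxidize 5-methylcytosine and so begin its removal. The CXXC domain is a zinc finger that binds unmethylated CpG, and it brings Cfp1, KDM2A, KDM2B and some TET proteins to CpG islands, the CpG-rich stretches at many promoters. At such promoters Cfp1 helps the SETD1 complexes to place trimethylation of histone H3 at lysine 4, a mark that keeps the DNMT3 enzymes away. In the heart, dividing cells become fewer after birth, and DNMT1 and UHRF1 are known from other tissues as genes of dividing cells.

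The promoters of these genes are shown because CpG is what the proteins in question bind. The RefSeq promoter table of build GRCm38.p6 held 16 windows for 8 of the 10 genes, with Kdm2a and Cxxc5 unmatched. In the 250 bases before the start site, 15 of the 16 windows had more CpG than the median of 6 among all 32851 windows, and 10 had more than the upper quartile of 16. Tet2 had 51 CpG, more than 99.9% of all windows. Dnmt1 had windows of 26, 7 and 2 CpG, and the CpG-poor one of 2 lies directly before the gene start that the deposited table uses. The letters TTTNNCGC, with any letter at N, were searched on both strands as a loose form of the core that E2F factors of the cell cycle are known to bind. They were present in 4.28% of all windows. The CpG-rich Dnmt1 window held 2 matches, which overlap on the same stretch. Each of the Uhrf1 windows, which had 10 and 30 CpG, held 1 match, and the other windows of these genes held none. The windows that carry these contrasts are printed 5′ to 3′ with each CpG in capitals.
Dnmt1, chr9:20952624-20952873, minus strand, 26 CpG: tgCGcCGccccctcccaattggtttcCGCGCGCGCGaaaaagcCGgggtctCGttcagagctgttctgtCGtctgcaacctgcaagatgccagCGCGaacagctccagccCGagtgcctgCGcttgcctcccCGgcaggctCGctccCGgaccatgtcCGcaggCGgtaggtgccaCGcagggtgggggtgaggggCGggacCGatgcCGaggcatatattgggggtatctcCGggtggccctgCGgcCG
Dnmt1, chr9:20959889-20960138, minus strand, 2 CpG: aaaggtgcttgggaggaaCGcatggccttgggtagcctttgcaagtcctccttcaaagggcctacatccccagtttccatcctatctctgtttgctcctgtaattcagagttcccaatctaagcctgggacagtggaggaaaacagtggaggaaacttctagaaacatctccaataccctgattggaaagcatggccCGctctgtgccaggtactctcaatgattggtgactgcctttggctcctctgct
Uhrf1, chr17:56304063-56304312, plus strand, 30 CpG: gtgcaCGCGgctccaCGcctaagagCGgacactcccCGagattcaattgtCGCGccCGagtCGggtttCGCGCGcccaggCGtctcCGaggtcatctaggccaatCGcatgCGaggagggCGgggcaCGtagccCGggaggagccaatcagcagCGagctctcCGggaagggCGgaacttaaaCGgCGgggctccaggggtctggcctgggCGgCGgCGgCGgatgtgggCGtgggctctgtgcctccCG
Tet2, chr3:133544391-133544640, minus strand, 51 CpG: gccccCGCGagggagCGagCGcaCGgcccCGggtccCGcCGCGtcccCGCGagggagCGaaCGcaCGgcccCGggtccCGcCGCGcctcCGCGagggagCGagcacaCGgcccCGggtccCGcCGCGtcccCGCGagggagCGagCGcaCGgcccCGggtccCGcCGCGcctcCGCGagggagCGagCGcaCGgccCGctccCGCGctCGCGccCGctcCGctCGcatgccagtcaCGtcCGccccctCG

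The other methyltransferase, Tet and Kdm2b windows lay between these extremes. Dnmt3a had 38, 40 and 15 CpG, Dnmt3b 21, Tet1 15, Tet3 17, and Kdm2b 38, 36, 12 and 27. A CpG or a motif match describes the letters of a window and is not evidence of a bound protein or of methylation, which was not measured in these libraries.

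**Figure D1:**
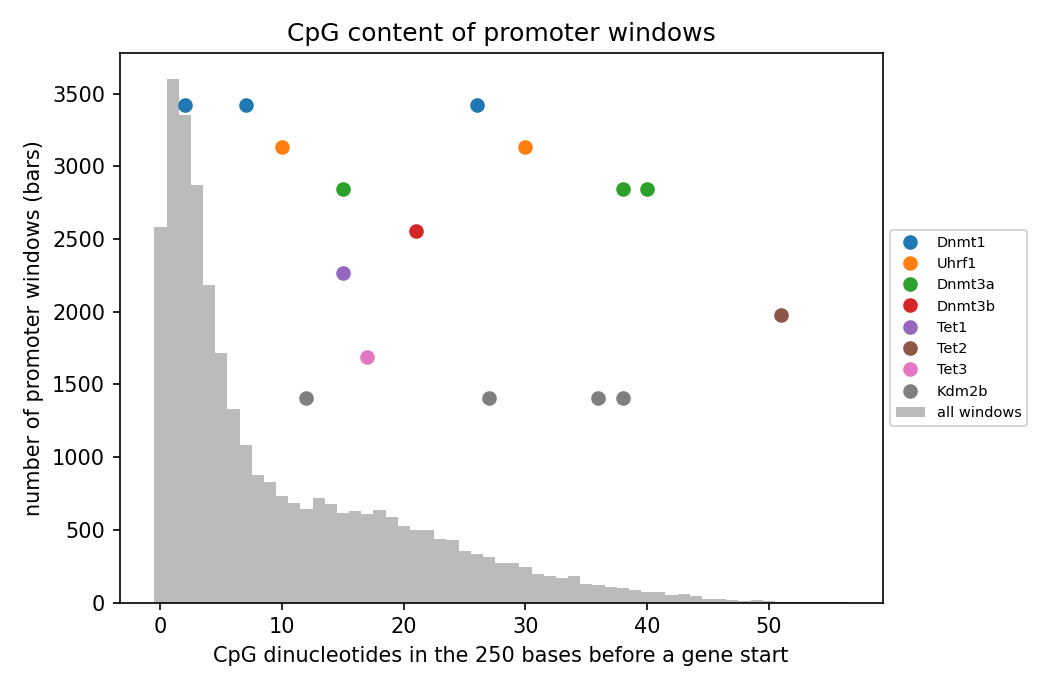
CpG dinucleotides in the 250 bases before a gene start. Grey bars count all 32851 RefSeq windows at each number of CpG, and coloured points mark the 16 windows of 8 genes on the same horizontal axis, with a row for each gene and no meaning to the height of a row. Tet2 stands at the far right with 51 CpG, whereas a Dnmt1 window stands at 2 CpG, left of the median of 6.

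The deposited values are FPKM, fragments per kilobase of exon, set against the library's total. Library totals worked back from the steps of these values were 16672652 to 19481847 fragments in Cfp1-cKO and 18007474 to 22700811 in WT hearts. Genes were tested with limma on log2(FPKM + 1) where their mean over the 6 libraries was at least 1 FPKM, which left 11017 genes, and called where the p adjusted by Benjamini-Hochberg was below 0.05 and the log2 fold change exceeded 0.5 in size. The fold change understates the change of low genes. The median log2 fold change over all tested genes was 0.35. Mitochondrially encoded genes held 29.1% to 34.4% of the fragments worked back from the FPKM in Cfp1-cKO and 36.3% to 38.5% in WT hearts. Rescaling without mitochondrially encoded and haemoglobin genes left the median log2 fold change at 0.30. Because the median gene was shifted, values are also given after median-of-ratios scaling, which moves that median to 0.00. On the deposited scale 22.8% of all tested genes were called, and 6.98% after scaling. The targeted gene Cxxc1 averaged 8.90 ± 0.97 FPKM in Cfp1-cKO and 10.9 ± 1.8 FPKM in WT hearts (SD, n = 3 each), and was not called (log2 fold change -0.26, adjusted p = 0.249 from limma, and -0.66, adjusted p = 0.0571, after scaling). Its genotypes overlapped on the deposited scale. After scaling they did not (7.11 to 8.16 in Cfp1-cKO and 11.1 to 15.8 scaled FPKM in WT hearts, 95% interval -1.05 to -0.27). Heart tissue was checked with 10 cardiomyocyte genes, which summed to 9485 to 13153 FPKM in Cfp1-cKO and 11324 to 19739 FPKM in WT hearts. Tnni3, Tnnt2, Ryr2 and Myl3 were called lower in Cfp1-cKO hearts, on both scales. The others were not called. On the deposited log2 scale Mybpc3 (0.48), Actn2 (0.33) and Myl2 (0.05) stood higher, and Myh6 (-0.39), Actc1 (-0.38) and Ttn (-0.08) lower.

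Other cell types moved with the genotype. All 10 lung epithelium markers were called higher in Cfp1-cKO hearts, with sums of 4513, 3163 and 4789 FPKM in Cfp1-cKO against 0.387, 3.93 and 0.348 FPKM in WT hearts, where the defining markers Cldn18 and Lamp3 were at 0. Lymphocyte and plasma cell markers summed to 220, 62.0 and 85.7 FPKM in Cfp1-cKO and 0.721, 0.549 and 2.16 FPKM in WT hearts, where Igkc was at 0, and the 3 of 9 that were tested were all called higher. The 10 lung genes and these 3 had WT means below 1 FPKM and reached the filter through the Cfp1-cKO hearts. Of 6 macrophage markers, 4 of the 5 tested were called higher. Their sum of 416 to 794 FPKM in Cfp1-cKO and 52.6 to 64.1 FPKM in WT hearts was mostly Lyz2, which alveolar type II cells also express, and the other 5 summed to 23.1 to 31.1 FPKM in Cfp1-cKO and 8.14 to 16.6 FPKM in WT hearts. Of 6 endothelial markers Cdh5 and Vwf were called higher, as was the smooth muscle marker Cnn1 of 3 tested. None of 6 fibroblast markers was called, but their median log2 fold change was 0.94, beside 0.48 for the endothelial markers. The fibroblast markers ranged from 0.08 for Dcn to 1.18 for Col1a1. After scaling, the calls that remained were those of all 10 lung genes, of Igkc and Jchain, and of the macrophage genes Lyz2 and Cd68. The part of these cells in the values of the methylation genes was not tested, and in whole tissue fewer cells of a type and less RNA per cell cannot be told apart.

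Genes of dividing cells were highest in Cfp1-cKO replicate 2, which stood apart from the other libraries. The 14 genes of S phase and mitosis summed to 38.3, 113 and 32.7 FPKM in Cfp1-cKO replicates 1, 2 and 3, against 25.4, 34.4 and 26.7 FPKM in WT replicates 1, 2 and 3. Pcna made up most of the sum in every library but Cfp1-cKO replicate 2. The other 13 summed to 13.6, 69.2 and 13.4 FPKM in Cfp1-cKO and 6.74, 6.08 and 10.7 FPKM in WT hearts, so that all 3 Cfp1-cKO hearts lay above the WT hearts. The lowest Cfp1-cKO value exceeded the highest WT value for 7 of the 14 (Top2a, Mcm2, Mcm3, Mcm5, Cdk1, E2f1 and Rrm2), as for 46.4% of all tested genes. All 14 were highest in Cfp1-cKO replicate 2, and so were all 6 erythroid genes, which summed to 966, 1669 and 197 FPKM in Cfp1-cKO and 52.1, 904 and 86.1 FPKM in WT hearts. Mcm2, a subunit of the replicative helicase, was the single called gene among the 10 of S phase and mitosis that were tested (log2 fold change 0.96, adjusted p = 0.0475 from limma), and it was not called after scaling. The WT mean of Mcm2, 0.555 FPKM, was below the filter, which Mcm2 passed through the Cfp1-cKO hearts. None of the 3 tested erythroid genes was called.

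Dnmt1 had the largest fold change of the tested members on log2(FPKM + 1) and was not called. By the ratio of means Uhrf1, at 2.18, exceeded it. Dnmt1 (ENSMUSG00000004099, chr9:20907209-20959888, minus strand) had 2.27, 4.98 and 3.25 FPKM in Cfp1-cKO hearts, against 1.66, 1.39 and 2.08 FPKM in WT hearts, from 193 to 613 fragments a library. Its 3 Cfp1-cKO values lay above its 3 WT values, and the ratio of the means was 2.05. The log2 fold change was 0.70 (standard error 0.23, 95% interval 0.16 to 1.23), with an adjusted p of 0.0602 from limma. The Cfp1-cKO values spread more than the WT values, with coefficients of variation of 39.3% and 20.3%. After scaling the ratio of the means was 1.49, the genotypes overlapped (2.14 to 4.09 in Cfp1-cKO and 1.70 to 2.29 scaled FPKM in WT hearts), and the log2 fold change was 0.38 (95% interval -0.08 to 0.84, adjusted p = 0.273 from limma). The call turned on single libraries: without Cfp1-cKO replicate 1, the lowest of the Cfp1-cKO hearts, Dnmt1 was called (log2 fold change 0.90, adjusted p = 0.0413 from limma), and without replicate 2 the fold change was 0.47 (adjusted p = 0.193).

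Uhrf1, whose protein guides DNMT1 to newly copied DNA, was high in 1 library. Uhrf1 (ENSMUSG00000001228, chr17:56303321-56323486, plus strand) stood at 0.591, 3.10 and 0.613 FPKM in Cfp1-cKO hearts, against 0.248, 0.947 and 0.782 FPKM in WT hearts, from 24 to 220 fragments. Cfp1-cKO replicate 2 was the single high value, and the other Cfp1-cKO hearts lay within the range of the WT hearts. The log2 fold change was 0.43 (95% interval -0.42 to 1.28, adjusted p = 0.388 from limma), or 0.22 (adjusted p = 0.731) after scaling. Uhrf1 reached the filter through replicate 2 alone and was not tested without it. Its mean was then 0.602 FPKM in Cfp1-cKO and 0.659 FPKM in WT hearts, a difference of -0.03 on the log2 scale. The summed S phase and mitosis genes were highest in the same library.

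**Figure D2:**
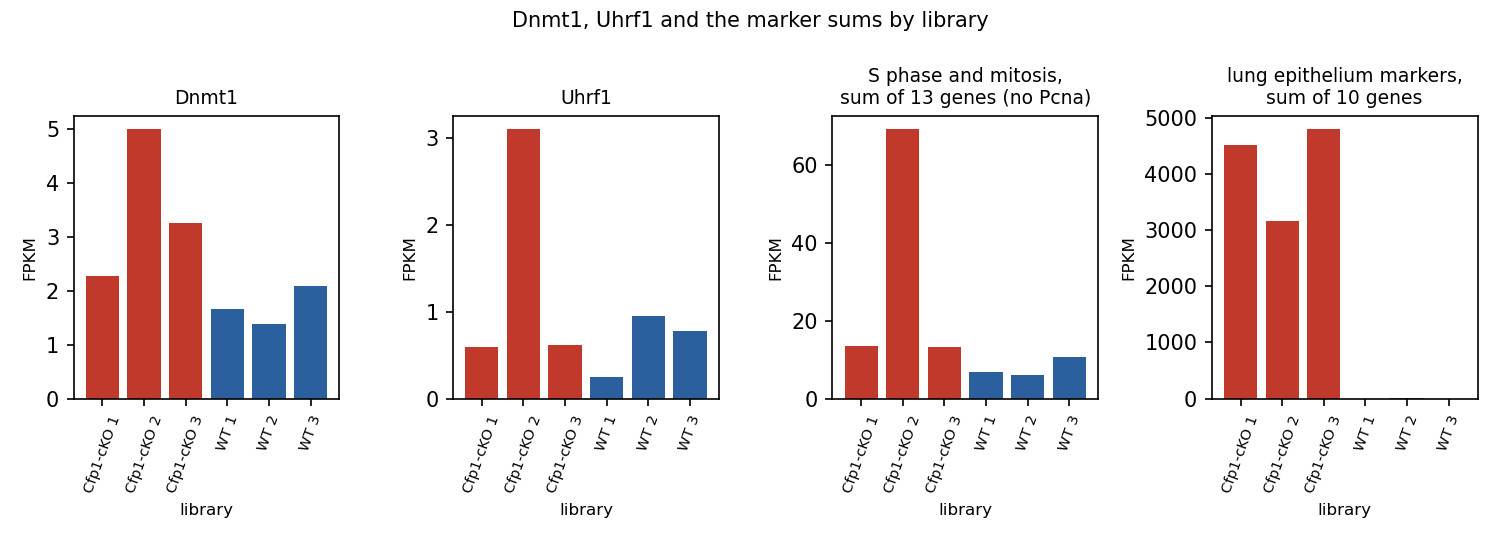
FPKM of Dnmt1, of Uhrf1, of 13 summed S phase and mitosis genes (without Pcna) and of 10 summed lung epithelium markers in each library, Cfp1-cKO in red and WT in blue, on linear axes from 0. Uhrf1 (3.10 FPKM) and the S phase and mitosis sum (69.2 FPKM) peak in Cfp1-cKO replicate 2. The lung sum is lowest there among the 3 Cfp1-cKO hearts (3163 FPKM), an order set by Scgb1a1 (2904, 405 and 671 FPKM in replicates 1, 2 and 3). Sftpc, Sftpb, Sftpa1, Sftpd, Cldn18, Lamp3 and Napsa were instead lowest in Cfp1-cKO replicate 1, whereas Scgb3a2 and Ager were not.

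No partner of maintenance methylation was called. Of 8 genes 4 were tested, with a median log2 fold change of 0.31 beside 0.35 for all tested genes, and 6 of the 8 were highest in Cfp1-cKO replicate 2. Pcna, the sliding clamp of replication forks, measured 24.7, 44.0 and 19.3 FPKM in Cfp1-cKO hearts, against 18.7, 28.3 and 16.0 FPKM in WT hearts. Lig1, the ligase that joins Okazaki fragments, had 0.758, 3.46 and 0.728 FPKM in Cfp1-cKO hearts, against 0.454, 0.460 and 0.559 FPKM in WT hearts (fold change on the log2 scale 0.68, adjusted p = 0.162 from limma). The WT mean of Lig1, 0.491 FPKM, was below the filter, which Lig1 passed through Cfp1-cKO replicate 2. Its inclusion favours a higher median for the tested partners. Usp7 and Uhrf2 were the other tested partners, with log2 fold changes of 0.19 and 0.17.

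Among the de novo enzymes, Dnmt3a was tested and not called, and Dnmt3b was too low to be tested. Dnmt3a (ENSMUSG00000020661, chr12:3806007-3914443, plus strand) stood at 2.95, 4.67 and 5.93 FPKM in Cfp1-cKO hearts, against 3.23, 3.15 and 4.32 FPKM in WT hearts, from 955 to 1778 fragments. The genotypes overlapped, and Cfp1-cKO replicate 1 was the lowest of the 6 hearts. The log2 fold change was 0.24 (95% interval -0.27 to 0.76, adjusted p = 0.416 from limma) and turned to -0.11 (95% interval -0.54 to 0.31, adjusted p = 0.736) after scaling. Dnmt3b (ENSMUSG00000027478, chr2:153649450-153687730, plus strand) measured 0.322, 0.681 and 0.402 FPKM in Cfp1-cKO hearts, against 0.233, 0.187 and 0.402 FPKM in WT hearts. These values rest on 18 to 58 fragments a library and fell below the filter. With the filter lowered to a mean of 0.1 FPKM, its adjusted p from limma was 0.264, at a difference of 0.20 on the log2 scale.

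Among the partners of the de novo enzymes 1 of 7 tested genes was called, and it was higher in Cfp1-cKO hearts. Zfp57, a zinc finger protein that keeps methylation at imprinted loci, had 1.37, 2.38 and 1.32 FPKM in Cfp1-cKO hearts, against 0.477, 0.448 and 0.924 FPKM in WT hearts (fold change on the log2 scale 0.72, adjusted p = 0.0419 from limma). Its WT mean of 0.617 FPKM was below the filter, which it passed through the Cfp1-cKO hearts. After scaling Zfp57 was not called, and no partner was. The median log2 fold change of the 7 was 0.34, next to 0.35 for all tested genes. Dnmt3l, the germ cell cofactor, was at 0 to 0.0344 FPKM.

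The values of all 3 Tet genes overlapped between the genotypes, and none was called. Tet1 (ENSMUSG00000047146, chr10:62804570-62908996, minus strand), whose long form carries a CXXC domain, stood at 0.617, 1.72 and 2.34 FPKM in Cfp1-cKO hearts, against 1.02, 0.511 and 1.44 FPKM in WT hearts, from 145 to 635 fragments. Its values ranged widely within each genotype and overlapped between them (log2 fold change 0.33, 95% interval -0.35 to 1.00, adjusted p = 0.404 from limma, and 0.09, adjusted p = 0.868, after scaling). The WT mean of Tet1, 0.990 FPKM, was just below the filter, which Tet1 passed through the Cfp1-cKO hearts. Tet2 (ENSMUSG00000040943, chr3:133463679-133545139, minus strand), which lost its CXXC domain to a neighbouring gene in evolution, measured 2.05, 2.61 and 2.92 FPKM in Cfp1-cKO hearts, against 1.98, 1.77 and 2.39 FPKM in WT hearts. Its genotypes overlapped, with a log2 fold change of 0.21 (95% interval -0.18 to 0.59, adjusted p = 0.350 from limma) that turned to -0.10 (adjusted p = 0.670) after scaling. Tet3 (ENSMUSG00000034832, chr6:83362373-83459084, minus strand), the Tet enzyme of the zygote, had 1.67, 2.55 and 2.93 FPKM in Cfp1-cKO hearts, against 1.91, 2.71 and 2.22 FPKM in WT hearts. It had the smallest fold change of the 8 tested members, 0.03 on the log2 scale (95% interval -0.41 to 0.48, adjusted p = 0.902 from limma), and -0.28 (95% interval -0.68 to 0.11, adjusted p = 0.340) after scaling.

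Enzymes that supply or follow the Tet reaction gave 1 call in each direction among 8 cofactor genes. Ogt, the O-GlcNAc transferase that binds TET2 and TET3, was called higher (28.0, 29.2 and 34.6 FPKM in Cfp1-cKO and 19.2, 20.8 and 22.4 FPKM in WT hearts, fold change on the log2 scale 0.53, adjusted p = 0.0375 from limma), and lost the call after scaling. Idh3a, the catalytic subunit of the mitochondrial isocitrate dehydrogenase that makes α-ketoglutarate, was called lower (107, 101 and 126 FPKM in Cfp1-cKO and 164, 150 and 179 FPKM in WT hearts, fold change on the log2 scale -0.56, adjusted p = 0.0367). After scaling Idh3a was still called, together with Idh1 (log2 fold change -0.91, adjusted p = 0.0326) and Idh3b (-0.80, adjusted p = 0.0454). The cardiomyocyte marker sums overlapped between the genotypes, and 4 of those 10 markers were called lower beside the Idh genes, whereas the others were not called. Among 10 tested genes of demethylation and repair none was called, and Tdg, the glycosylase that excises oxidized methylcytosine, was nearest (6.22 ± 1.18 FPKM in Cfp1-cKO and 4.01 ± 0.31 FPKM in WT hearts, fold change on the log2 scale 0.52, adjusted p = 0.0566). None of 9 tested genes of the methyl donor cycle was called, with Mat2a, which makes the donor S-adenosylmethionine, at 53.1 ± 4.2 FPKM in Cfp1-cKO and 49.6 ± 6.6 FPKM in WT hearts.

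Kdm2a and Kdm2b, CXXC-domain demethylases of histone H3 at lysine 36, were low but detected in every heart. Kdm2a (ENSMUSG00000054611, chr19:4314419-4398285, minus strand) stood at 3.72, 4.93 and 4.71 FPKM in Cfp1-cKO hearts, against 2.77, 3.19 and 3.11 FPKM in WT hearts, from 800 to 1213 fragments. The 3 Cfp1-cKO values lay above the 3 WT values, with a log2 fold change of 0.43 (95% interval 0.08 to 0.79, adjusted p = 0.0705 from limma). After scaling they overlapped, and the fold change was 0.08 (95% interval -0.21 to 0.38, adjusted p = 0.719). Kdm2b (ENSMUSG00000029475, chr5:122870665-122989823, minus strand) measured 0.756, 1.18 and 1.35 FPKM in Cfp1-cKO hearts, against 0.782, 0.649 and 0.756 FPKM in WT hearts, and fell below the filter. With the filter lowered to 0.1 FPKM its adjusted p from limma was 0.212, at a difference of 0.27 on the log2 scale. KDM2B recruits a Polycomb complex, PRC1.1, to CpG islands, and none of the 8 tested genes of that complex was called. Among them Skp1a was the most abundant, at 117 ± 8 FPKM in Cfp1-cKO and 93.7 ± 9.3 FPKM in WT hearts (fold change on the log2 scale 0.32, adjusted p = 0.127).

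Cxxc5, a nuclear CXXC-domain protein known as a regulator of Wnt and BMP signalling, was the most abundant member. Cxxc5 (ENSMUSG00000046668, chr18:35829818-35861687, plus strand) had 5.0, 12.3 and 7.97 FPKM in Cfp1-cKO hearts, against 5.43, 5.68 and 6.90 FPKM in WT hearts, from 221 to 464 fragments. Cfp1-cKO replicate 1 was the lowest and replicate 2 the highest of the 6 hearts, so that the WT range lay inside that of Cfp1-cKO. The log2 fold change was 0.36 (95% interval -0.26 to 0.98, adjusted p = 0.322 from limma), at the median of all tested genes, and -0.03 (95% interval -0.58 to 0.51, adjusted p = 0.948) after scaling. Without replicate 2 it was 0.07 (adjusted p = 0.840).

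**Figure D3:**
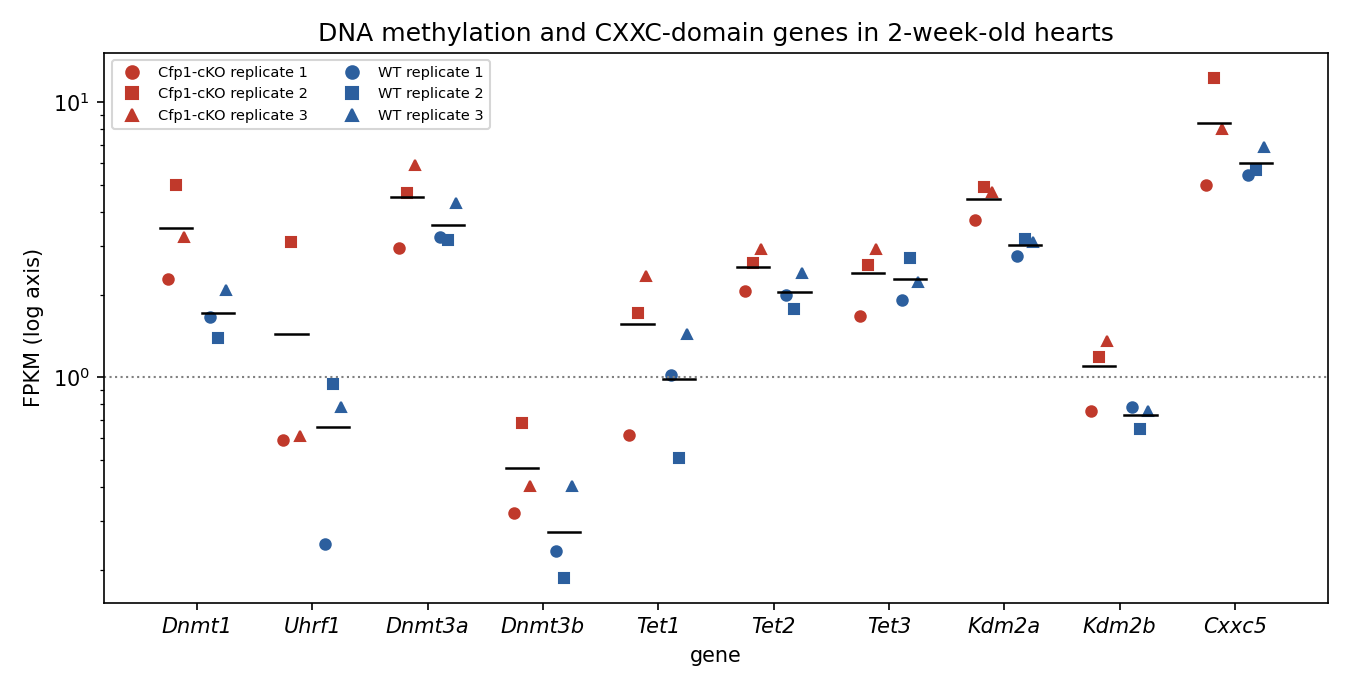
FPKM of the 10 genes in each library on a log axis, Cfp1-cKO in red to the left of WT in blue for each gene, with a marker shape for each replicate and a black line at the mean of 3. The dotted line is 1 FPKM. Dnmt1 and Kdm2a have all 3 Cfp1-cKO points above all 3 WT points, and Uhrf1 has a single high point in Cfp1-cKO replicate 2.

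Among other CXXC-domain genes, 2 of 4 tested were called higher, beside 22.8% of all tested genes, and neither was called after scaling. Kmt2a, a methyltransferase of histone H3 at lysine 4, stood at 3.04, 4.09 and 4.14 FPKM in Cfp1-cKO hearts, against 1.85, 2.00 and 2.64 FPKM in WT hearts (fold change on the log2 scale 0.59, adjusted p = 0.0426 from limma). Mbd1, which joins CXXC zinc fingers to a methyl-CpG-binding domain, measured 10.9, 9.66 and 12.0 FPKM in Cfp1-cKO hearts, against 6.03, 6.57 and 7.19 FPKM in WT hearts (fold change on the log2 scale 0.64, adjusted p = 0.0234). Among 8 tested readers of methylated CpG, 2 were called, Mbd1 and Zbtb4, both higher, a share near those 22.8%. Zbtb4, a zinc finger protein that binds methylated CpG, had 6.05, 7.46 and 7.06 FPKM in Cfp1-cKO hearts, against 3.22, 1.29 and 3.90 FPKM in WT hearts (fold change on the log2 scale 1.11, adjusted p = 0.0264, and 0.77, adjusted p = 0.126, after scaling). With each library left out in turn, Kmt2a, Mbd1 and Zbtb4 were each called in 2 of the 6 sets of 5 libraries, and Zfp57, Ogt, Idh3a and Mcm2 in 1 each. Kmt2a ranged over 0.52 to 0.70 on the log2 scale, Mbd1 over 0.57 to 0.71, and Zbtb4 over 0.78 to 1.33. Each of these 7 calls was lost without Cfp1-cKO replicate 2 and without WT replicate 1, among others.

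Considered together, none of the 8 tested members was called, while 22.8% of all tested genes were called. The same count after scaling was 0 of 8 members, beside 6.98% of all tested genes. At an unadjusted p below 0.05 there were 2 members, Dnmt1 and Kdm2a, on the deposited scale, beside 43.8% of all tested genes, and 0 after scaling, beside 24.7%. With limma's library weights 4 members were called higher, Dnmt1 (0.86), Uhrf1 (1.03), Kdm2a (0.56) and Cxxc5 (0.65 on the log2 scale), beside 39.9% of all tested genes. These weights did not count Cfp1-cKO replicate 2 less, as the fold change of Uhrf1, high in that library alone, was 0.43 without weights. The Uhrf1 call rests on Cfp1-cKO replicate 2, without which it was not tested. The lowest Cfp1-cKO value exceeded the highest WT value for Dnmt1 and Kdm2a, a pattern that 46.4% of all tested genes had, and for no member after scaling, beside 16.7% of all. The mean was higher in Cfp1-cKO hearts for 10 of 10 members, as it was for 83.3% of tested genes. After scaling it was higher for 7 of 10 members, for which the share of all tested genes was not computed. The median log2 fold change of all tested genes was then 0.00. The median fold change of the 8 was 0.34 beside 0.35 for all tested genes on the log2 scale. Of these 8, Tet1 (WT mean 0.990 FPKM) and Uhrf1 (0.659 FPKM) passed the filter through the Cfp1-cKO hearts, which favours a higher median. Among the related lists the median was 0.50 for other CXXC-domain genes, 0.26 for methyl-CpG readers, 0.18 for demethylation and repair, 0.25 for the methyl donor cycle, 0.23 for PRC1.1, -0.29 for the Tet cofactors and 0.92 for S phase and mitosis. In that last list Mki67, Top2a, Mcm2, Mcm5, Ccna2 and Cdk1 had WT means below 1 FPKM. They passed the filter through the Cfp1-cKO hearts, a selection that favours a higher median. Dnmt1 exceeded 82.5% of tested genes in fold change, and Tet3 exceeded 18.3%.

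**Figure D4:**
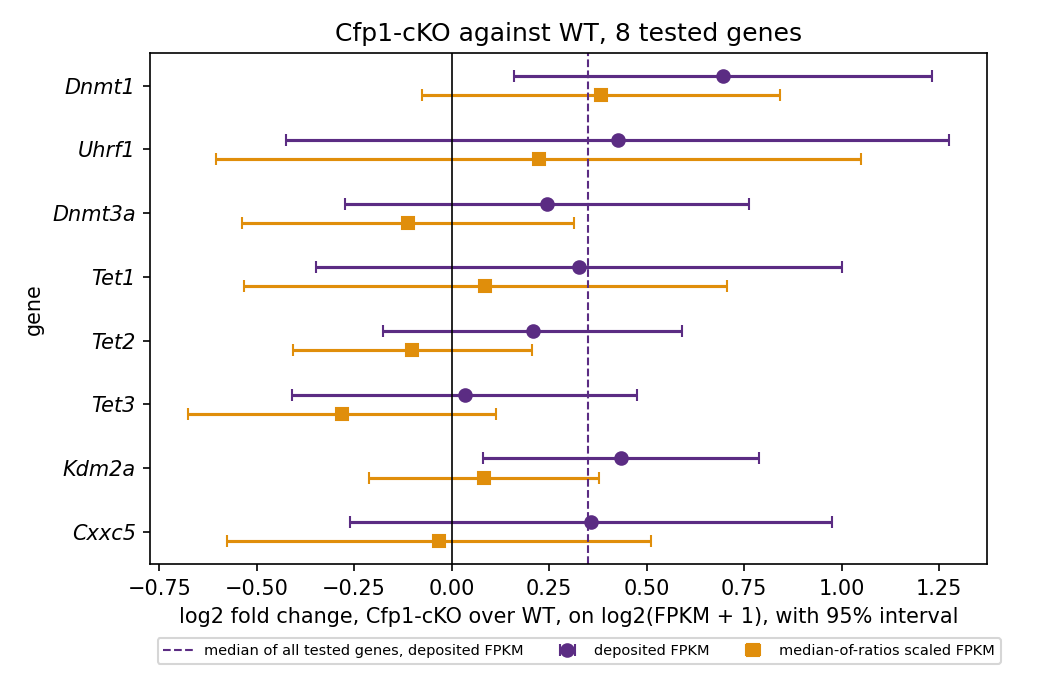
Log2 fold change of the 8 tested members, Cfp1-cKO over WT, on log2(FPKM + 1), with its 95% interval from limma, for the deposited FPKM (circles) and after median-of-ratios scaling (squares). The dashed line is the median of all tested genes on the deposited scale, 0.35. Only the intervals of Dnmt1 (0.16 to 1.23) and Kdm2a (0.08 to 0.79) lie above 0, both on the deposited scale alone.

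Within the Cfp1-cKO hearts the members shared the lowest library. Cfp1-cKO replicate 1 was the lowest Cfp1-cKO heart for 10 of 10 members, as for 57.9% of all tested genes. The highest was replicate 2 for Dnmt1, Uhrf1, Dnmt3b, Kdm2a and Cxxc5, and replicate 3 for Dnmt3a, Tet1, Tet2, Tet3 and Kdm2b. Over the 6 libraries, which share depth and composition across genes, Dnmt3a, Tet1 and Tet2 ran closely together on log2(FPKM + 1), with Pearson's r of 0.960 for Dnmt3a and Tet1, 0.948 for Dnmt3a and Tet2, and 0.958 for Tet1 and Tet2. Dnmt1 ran with Kdm2a (0.908) and Cxxc5 (0.895), and less with Tet3 (0.321). The tested genes most like Dnmt1 were Hn1l and Fkbp1a (r = 0.999 each), and 367 genes exceeded r = 0.95 with it. Uhrf1 had 6 such genes, led by Smox (0.985). Dnmt3a had 64, led by Fam208a (0.997), and Kdm2a had 549, led by Txlna (0.998).

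Levels per length ordered the members alike in both genotypes at the top and bottom. In WT hearts Cxxc5 was highest (6.0 ± 0.8 FPKM, SD, n = 3), followed by Dnmt3a (3.57 ± 0.65) and Kdm2a (3.02 ± 0.22), whose ranges overlapped. Tet3, Tet2, Dnmt1, Tet1, Kdm2b, Uhrf1 and Dnmt3b followed in this order, each with a WT range that overlapped that of the next. Of the neighbours in the order, only Cxxc5 and Dnmt3a, and Kdm2a and Tet3, had WT ranges that did not meet. In Cfp1-cKO hearts Cxxc5 (8.41 ± 3.65 FPKM) was again highest and Dnmt3b (0.468 ± 0.189) lowest, and Dnmt1 (3.50 ± 1.38) stood above Tet2 (2.53 ± 0.44) and Tet3 (2.39 ± 0.65).

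Shares within a family do not depend on the scaling between libraries. Dnmt1 made up 41.0%, 48.2% and 33.9% of the summed FPKM of the 3 Dnmt genes in Cfp1-cKO hearts, against 32.4%, 29.4% and 30.6% in WT hearts. The genotypes did not overlap, and the means differed by 10.3 percentage points (41.0% ± 7.1 in Cfp1-cKO and 30.8% ± 1.5 in WT hearts, SD, n = 3 each). Dnmt3a made up 53.2%, 45.2% and 61.9% in Cfp1-cKO, against 63.1%, 66.6% and 63.5% in WT hearts, -11.0 points apart without overlap. For both the two-sided exact permutation test gave p = 0.10, the smallest that 3 against 3 allows, and 0.35 after adjustment over 7 shares. Dnmt3b made up only 5.53% in Cfp1-cKO and 4.81% in WT hearts on average. The Dnmt1 and Dnmt3a differences are therefore near mirror images of each other and not independent results. Without Cfp1-cKO replicate 2 the differences were 6.66 points for Dnmt1 and -6.86 points for Dnmt3a. The S phase and mitosis genes without Pcna were also higher in all 3 Cfp1-cKO hearts, and their part in the shares was not tested.

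Shares of the Tet and Kdm2 families overlapped between the genotypes. Tet1 made up 22.6% ± 7.5 of the Tet sum in Cfp1-cKO and 18.3% ± 7.1 in WT hearts (exact permutation p = 0.50), and Tet2 40.3% ± 6.2 in Cfp1-cKO and 38.4% ± 2.7 in WT hearts (exact permutation p = 0.80). Tet3 made up 37.1% ± 1.4 in Cfp1-cKO and 43.3% ± 9.6 in WT hearts (exact permutation p = 0.40), and WT replicate 2, at 54.4%, was the single library far from the others. Without that library the Tet3 difference was -0.65 points, against -6.18 points with it, and the Tet2 difference of 1.85 points turned to -1.66 points without Cfp1-cKO replicate 1. Dnmt3b made up 5.53% ± 1.2 of the Dnmt sum in Cfp1-cKO and 4.81% ± 1.0 in WT hearts (exact permutation p = 0.50). Kdm2a was 80.5% ± 2.7 of the Kdm2 sum in Cfp1-cKO and 80.5% ± 2.6 in WT hearts (exact permutation p = 1.0).

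**Figure D5:**
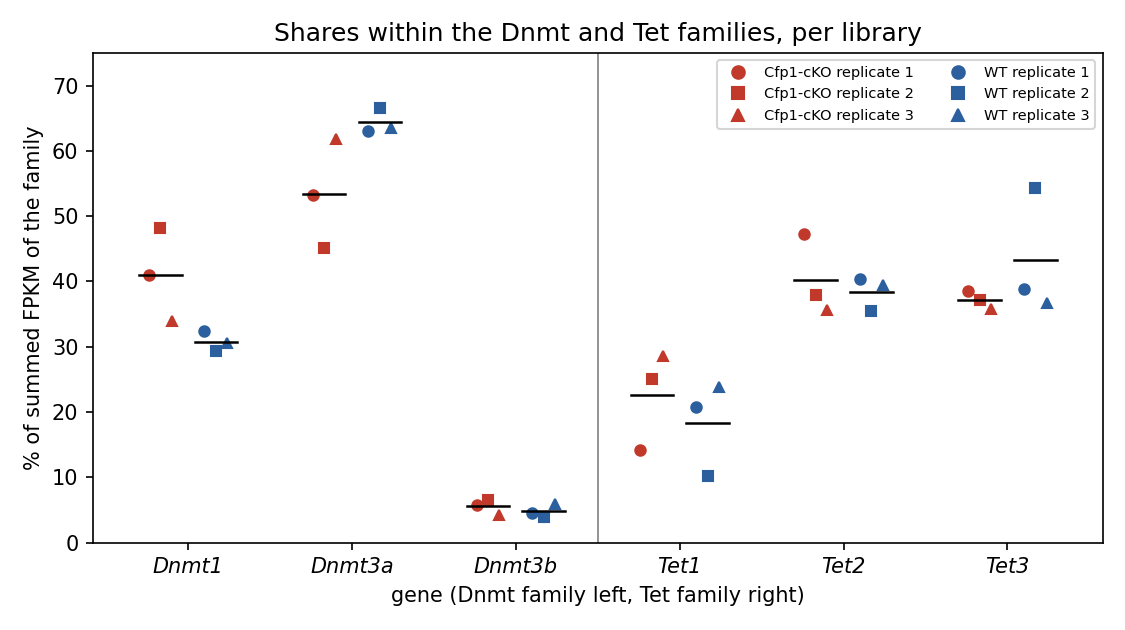
Share of each gene in the summed FPKM of its family in each library, in percent, for the Dnmt family (left) and the Tet family (right), with Cfp1-cKO in red to the left of WT in blue, a marker shape for each replicate and a black line at the mean of 3. Dnmt1 is above all WT values in the 3 Cfp1-cKO hearts (33.9% to 48.2%, against 29.4% to 32.4%) and Dnmt3a is below them, whereas every Tet share overlaps.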

How the data were processed

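RNA-seq was done on 6 heart samples, 3 Cfp1-cKO and 3 WT. The authors deposited FPKM values per gene, in a plain and an annotated table whose values were identical for all 26881 genes. Gene names and positions were taken from the annotation columns. For alignment the paper names Bowtie2 and TopHat, with the address of a chicken genome, whereas the submitters' processing notes list the mouse build GRCm38 and, in no given order, HTSeq 0.6.0, HISAT2 2.1.0, CASAVA, TopHat2 and Bowtie2 2.2.3. The extraction text of the labels mentions retinas. Whether counting used strand is not given in the sources used here.

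With GENCODE vM21 lengths the FPKM of 23961 genes came out as whole numbers of fragments in every library (tolerance 0.02). With fitted lengths for further genes the number was 26366, 98.4% of the 26787 matched to GENCODE vM21. The fitted lengths, those of Tet1, Kdm2a, Cxxc5 and Cxxc1 among them, were chosen to give whole numbers, which are therefore no check for these genes. One fragment in 2 kilobases was worth 0.0220 to 0.0300 FPKM, and 19037 to 22269 genes were above 0. Replicates differed by more than sampling noise in each pair (chi-square over its degrees of freedom 27.9 to 74.1).

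Cfp1-cKO was compared with WT in limma 3.58.1 (R 4.3.3), with the prior variance trended on the mean, a pseudocount of 1 and a filter at a mean of 1 FPKM. The fit and the adjustment ran over all tested genes. Shares used exact permutation tests in scipy 1.17.1, and figures matplotlib 3.10.9. The fit was tested on simulated data. The 10 members and the 17 context and marker lists were chosen with earlier results of these data known. Named genes are all members, Cxxc1, and up to 4 of each list, those called with the largest change or else the most abundant, and others named, and the marker sums without Pcna or Lyz2, were chosen after their values were seen. Alternatives covered the pseudocount, filter, scaling, library weights, variance trend, fold threshold, replicate block, voom on recovered fragments, and each library left out. Promoter sequences are from RefSeq, build GRCm38.p6.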

Additional observations from a re-analysis of the deposited data

How the results depend on the processing

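None of the 8 tested members was called under 22 of 24 alternatives. Library weights called 4, and with libraries left out the count ranged from 0 to 1. The number of called genes was 2510 (2325 higher and 185 lower in Cfp1-cKO). It was 769 (411 higher and 358 lower) after median-of-ratios scaling, 1609 without a filter, 1558 after rescaling without mitochondrially encoded and haemoglobin genes, and 4399 with library weights. With a library left out it ranged from 202 to 2815, the lowest without Cfp1-cKO replicate 2 on the scaled values. The replicate numbers share no stated origin. Deviations of same-numbered samples correlated at 0.11, 0.04 and 0.10, each sample best with its own number, and the replicate block gave 1749 called genes and 0 members, or 428 genes with scaling as well. The sign of 5 members turned. Scaling gave -0.11 for Dnmt3a, -0.10 for Tet2, -0.28 for Tet3 and -0.033 for Cxxc5 on the log2 scale, the same with the block. Tet3 was also at -0.035 with voom on recovered fragments and -0.0064 with the mitochondrial and haemoglobin genes removed. With libraries left out, with and without scaling, Dnmt3a ranged from -0.26 to 0.47, Tet1 from -0.11 to 0.63, Tet2 from -0.16 to 0.31, Tet3 from -0.37 to 0.19 and Cxxc5 from -0.28 to 0.64. The cause was not tested. Dnmt1 (0.19 to 0.94, adjusted p 0.0035 to 0.632 from limma) and Kdm2a (0.03 to 0.56) kept their direction. Uhrf1 ranged from 0.01 to 1.03 where it was tested, and could not be tested without Cfp1-cKO replicate 2, where its untested difference was -0.03, or -0.18 with scaling. The shares moved by less than their spread under all 7 alternatives, with the sign turning for Tet2 without Cfp1-cKO replicate 1 and for Kdm2a (-0.0079 points) without Cfp1-cKO replicate 3 or WT replicate 2. Depth limits Dnmt3b and Uhrf1 most, with as few as 18 and 24 fragments in a library.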
